A study of Mus musculus with 8 samples.

Results

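Calcr, Cd34, Vcam1, Megf10, Chrdl2 and Sox8 are genes used to mark quiescent muscle stem cells (MuSCs), and 5 of the 6 encode proteins of the cell surface or the surrounding niche. The sixth, Sox8, encodes a transcription factor. The H3K56ac peaks described here are the intervals that touch one of these genes or the 50 kb on either side of it, with gene positions from GENCODE vM21. These 6 windows held 117 of the 105600 peaks in the merged MuSC list. The rule uses the names and positions of the genes and no value of the peaks. The members were, however, chosen with earlier results of these data known, so the comparisons below are descriptions only.

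H3K56ac is the acetylation of lysine 56 of histone H3, and SIRT6 is a deacetylase that can remove it. The study compared freshly isolated MuSCs of C57BL/6 mice of 2 genotypes, Control and Sirt6mKO, each with 2 libraries from the H3K56ac antibody and 2 from input chromatin, which is sequenced without immunoprecipitation. Control mice were labelled wild type. Sirt6mKO mice carried floxed Sirt6 alleles and a Cre recombinase driven by the Pax7 promoter, which deletes Sirt6 in Pax7-expressing cells and their descendants. The mice were 12 to 16 week old males. After removal of cells with Sca1, CD45 or CD31 on their surface, MuSCs were sorted by flow cytometry, by integrin α7 and CD34 or by a Pax7 reporter, so CD34, the product of a member gene, may have served to select the cells. The peaks of the libraries were merged into a single list without a genotype, a height or a replicate for any peak. A peak below is therefore a position and a width, its source can be Control, Sirt6mKO or both, and no test of genotype and no replicate error could be given. How deeply each library was sequenced cannot be read from it. Merging widens intervals and fuses those that overlap, so a width is that of the union. The study reports a global increase in the number of H3K56ac peaks in Sirt6mKO MuSCs and describes broad peaks after loss of Sirt6. How the widths below compare with those in Control cells alone was not tested.

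In resting muscle, MuSCs lie between the muscle fibre and its basal lamina, and surface receptors and adhesion proteins tie them to this niche. The calcitonin receptor Calcr is a G protein-coupled receptor that helps to keep MuSCs quiescent and is lost on activation. Cd34 is a sialomucin, Vcam1 is an adhesion protein of the immunoglobulin family that binds α4β1 integrin, and Megf10 is a transmembrane protein with EGF-like repeats. Chrdl2 is a secreted chordin-like protein that can bind bone morphogenetic proteins (BMPs). Sox8 belongs to the SoxE factors together with Sox9 and Sox10. H3K56ac is found at active promoters and enhancers, and the presence of a peak is not a measure of transcription.

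The RefSeq promoter table (GRCm38.p6) matched 3 of the 6 members, Calcr with 2 start sites, Cd34 and Sox8. The 240 bases that end 11 bases before each RefSeq start are shown because they lie under the widest promoter peak of their gene and differ in CpG content. They are written 5′ to 3′ along the gene, with motif matches in capitals. Both strands were searched for the E-box CAGCTG, for the AP-1 motif TGANTCA and for the RBPJ core TGGGAA. They were also searched for the Sp1-type motif GGGCGG and for the promoter motif TATAAA. The E-box and AP-1 motifs read the same on both strands, and matches of different motifs were allowed to overlap.

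Calcr, outer start (chr6:3764724-3764963, minus strand): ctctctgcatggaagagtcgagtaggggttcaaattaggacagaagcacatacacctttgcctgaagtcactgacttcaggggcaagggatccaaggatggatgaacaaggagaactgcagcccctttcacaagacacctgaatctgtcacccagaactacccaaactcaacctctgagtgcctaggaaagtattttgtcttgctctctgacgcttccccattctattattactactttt
Calcr, inner start (chr6:3763634-3763873, minus strand): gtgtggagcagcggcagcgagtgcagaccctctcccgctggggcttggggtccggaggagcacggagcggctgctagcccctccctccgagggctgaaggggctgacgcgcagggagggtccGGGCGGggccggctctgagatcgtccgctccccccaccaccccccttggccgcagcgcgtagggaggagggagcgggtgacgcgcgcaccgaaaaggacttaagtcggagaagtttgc
Cd34 (chr1:194938571-194938810, plus strand): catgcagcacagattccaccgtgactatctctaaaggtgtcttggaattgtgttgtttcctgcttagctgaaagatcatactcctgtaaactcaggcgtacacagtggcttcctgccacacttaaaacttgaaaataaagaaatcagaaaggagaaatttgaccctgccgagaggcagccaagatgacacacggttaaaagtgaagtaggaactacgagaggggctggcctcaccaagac
Sox8 (chr17:25570697-25570936, minus strand): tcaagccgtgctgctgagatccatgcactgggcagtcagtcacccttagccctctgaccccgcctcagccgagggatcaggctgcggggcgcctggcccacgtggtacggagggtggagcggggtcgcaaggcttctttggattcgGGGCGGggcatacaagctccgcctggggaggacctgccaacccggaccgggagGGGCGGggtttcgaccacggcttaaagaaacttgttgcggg

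The 300 bases around the outer Calcr start had 47.3% GC and an observed over expected CpG ratio of 0.24, while those around the inner start, which lies 1091 bp inside the gene, had 70.0% GC and a ratio of 0.80. Sox8 resembled the inner Calcr start, with 66.3% GC and a CpG ratio of 0.65. Cd34 resembled the outer one, with 50.0% GC and a ratio of 0.37. The median over all 32851 RefSeq promoters was 52.7% GC and a CpG ratio of 0.38. Both a CpG-poor and a CpG-rich Calcr start thus lay within the same H3K56ac peak. The only matches were to GGGCGG, at position -128 of the inner Calcr start and at -104 and -51 of Sox8. This motif occurs in 35.7% of all promoter windows of 300 bases, against 16.3% for CAGCTG, 7.81% for TGANTCA, 25.6% for TGGGAA and 13.6% for TATAAA. The outer Calcr start and Cd34 held no match to the 5 motifs in this window.

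Calcr also hosts 2 microRNA genes, Mir489 and Mir653, in intron 4 of Calcr-201. The mature arms are shown with the seed, bases 2 to 8, in capitals, because miR-489 is known to act in MuSC quiescence and because these genes lie past the end of the promoter domain of their host (chr6, minus strand).

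miR-489-3p: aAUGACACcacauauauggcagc
miR-489-5p: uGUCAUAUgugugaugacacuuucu
miR-653-3p: uUCACUGGaguuuguuucagu
miR-653-5p: gUGUUGAAacaaucucuacug

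The 4 seeds differ from one another. Neither Mir489 (107 bp) nor Mir653 (85 bp) overlapped a peak, and how often such short genes do was not determined. The nearest peak on the side of the Calcr promoter was 705 bp wide and ended 267 bp before Mir489 and 885 bp before Mir653.

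All 6 members carried a promoter peak, meaning a peak within 3 kb of an annotated transcription start site (TSS), as did 67.8% of the 21938 protein-coding genes. The widest promoter peak of each gene ran from 6614 bp at Sox8 to 33642 bp at Megf10, with a median of 11378 bp. The median of the 14872 coding genes with a promoter peak was 3430 bp. A width of at least 5 kb was reached by 6 of 6 members against 16.5% of coding genes, at least 10 kb by 5 of 6 against 2.59%, and at least 20 kb by Calcr and Megf10 against 0.319%. The merged list also held promoter peaks at 4 of 4 MuSC marker genes (Pax7, Myf5, Itga7 and Cdh15, from 7972 to 30239 bp). Of the markers of other cell types, 3 of 4 endothelial, 3 of 4 fibro-adipogenic, 1 of 4 blood, 4 of 4 myofibre and 3 of 4 Schwann cell genes also had one, so a promoter peak alone does not tell these cell types from MuSCs.

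**Figure D1:**
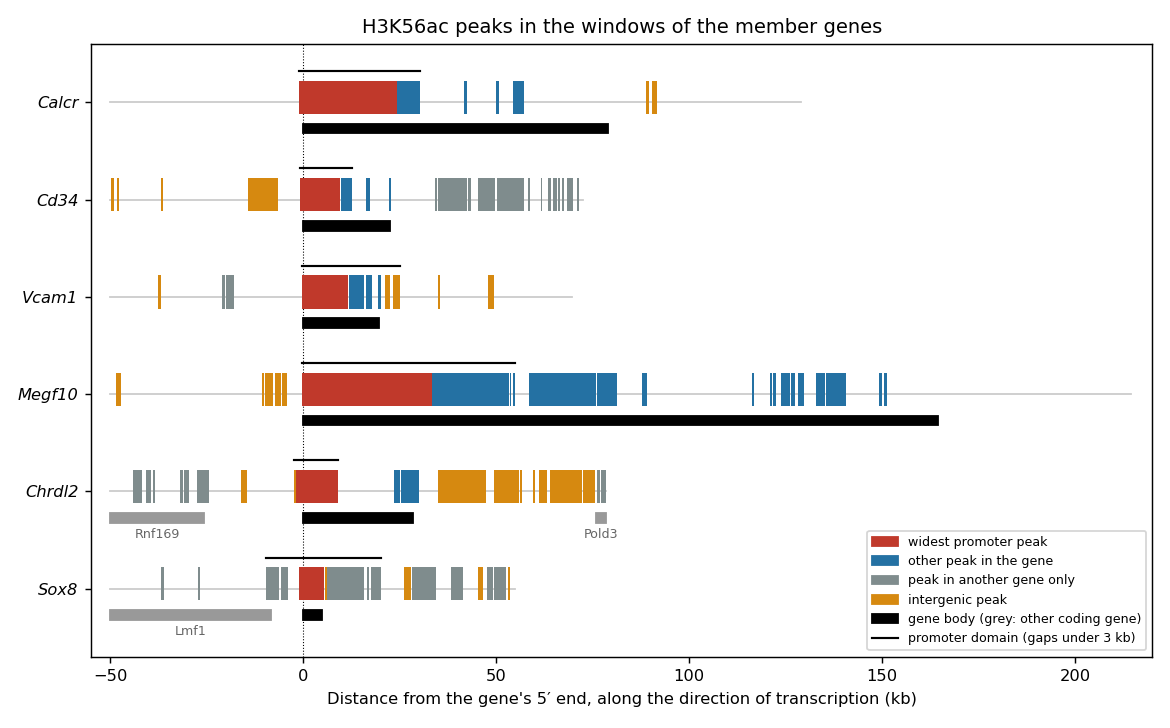
Peaks in the window of each member, drawn to scale by distance from the gene's 5′ end in kb along the direction of transcription, with 1 row per gene, bars for peaks and black boxes for gene bodies. The widest promoter peaks (red) reach from 5445 bp (Sox8) to 33266 bp (Megf10) downstream of the 5′ end and no more than 1755 bp upstream of it, intergenic peaks (orange) are most extensive downstream of Chrdl2, and no peak lies upstream of the Calcr promoter peak within the window.

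Promoter domains were defined as the run of peaks, joined across gaps under 3 kb, that holds the widest promoter peak. They measured 31.3 kb at Calcr, 13.5 kb at Cd34, 25.4 kb at Vcam1, 55.3 kb at Megf10, 11.4 kb at Chrdl2 and 29.9 kb at Sox8. A domain of at least 20 kb was present at 4 of the 6 members and at 5.41% of coding genes. Of the 12 domain ends, 8 lay outside the member gene. All 6 upstream ends were among them, and the others were the downstream ends of Vcam1 and Sox8. The upstream ends had to lie outside, because each domain holds a promoter peak that spans the 5′ end. The same count over all coding genes is not given here. The map of the 6 windows shows 4 layouts. Calcr had a 5′ domain with no peak in the upstream flank beyond it. Cd34, Megf10 and Chrdl2 had a 5′ domain with further peaks in the upstream flank. All of these genes also held peaks in the gene past the domain. Vcam1 had a domain over the whole gene and just past its 3′ end, and the domain of Sox8 ran over several genes.

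Calcr (ENSMUSG00000023964.15, chr6:3685680-3764714, minus strand, 79.0 kb) had the second widest promoter peak of the members. This peak of 25343 bp (chr6:3740485-3765827) started 1113 bp upstream of the 5′ end and ran 24.2 kb into the gene, over exons 1 to 3 of the 16 exons of Calcr-201. It ranked 31 of 14872, between Col5a1 (25363 bp) and Deptor (25098 bp). Col5a1 encodes a chain of collagen V, a matrix protein known to bind the calcitonin receptor on MuSCs. The start sites of all 5 annotated Calcr transcripts lay in this peak, including those of Calcr-203 and Calcr-204, 11740 bp inside the gene. Peaks of 3618 and 2270 bp followed in intron 3, after gaps as small as 41 bp, and closed the domain there. The rest of the gene held 3 separate peaks of 705 bp at exon 4, 727 bp at exon 7 and 3056 bp at exons 9 and 10. No peak touched the last 20% of the gene. Upstream, the domain ended at the promoter peak, and the next peak lay 202 kb away at Tfpi2, a secreted serine protease inhibitor (3600 bp). The upstream flank of 50 kb was thus empty over its outer 48.9 kb. Downstream of the gene, 2 intergenic peaks of 537 and 1249 bp lay 9887 and 11240 bp past the 3′ end, and the 82.1 kb up to Vps50, whose product acts in endosomal recycling, were 3.74% covered. With gaps of up to 12 kb joined, the Calcr domain grew to 58429 bp.

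Cd34 (ENSMUSG00000016494.9, chr1:194938819-194961279, plus strand, 22.5 kb) had a promoter peak of 10310 bp (chr1:194937910-194948219) from 909 bp upstream to 9401 bp into the gene. It covered exons 1 and 2 of the 8 exons of Cd34-201 and the start sites of all 5 annotated transcripts, and it ranked 518, just below Sik3 (10351 bp). Another peak of 2927 bp over exons 3 and 4 completed the domain, which ended in intron 4. After a gap of 3742 bp came a peak of 1019 bp in the same intron and one of 551 bp across exon 8 and the 3′ end. Upstream, an intergenic peak of 7842 bp (chr1:194924469-194932310) lay 6508 bp from the 5′ end and was separated from the domain by 5599 bp. It was the widest intergenic peak upstream of any member within the windows. A further 22.0 kb without a peak divided it from 3 narrow intergenic peaks of 397 to 777 bp. Those of 397 and 777 bp belonged to a region of 3 peaks and 12.2 kb, 89.5% covered, that continued 10038 bp past the window. The next coding gene upstream, Plxna2 (a plexin receptor for semaphorins), was 122 kb away and had its own promoter peak of 24568 bp, and 33.5% of the interval was covered. Downstream, 15 peaks lay in noncoding genes only. They belonged to a region of 18 peaks and 50.8 kb, 72.0% covered, that began 34120 bp from the Cd34 5′ end and continued 12.5 kb past the window. It held the 5′ ends of the antisense gene Gm16897, whose body overlaps the 3′ end of Cd34, of A330023F24Rik and of the lincRNA Gm32250, and no coding start site. The widest peak at the A330023F24Rik promoters was 8802 bp. Cd46, which encodes a complement regulator, lay 75.5 kb downstream with a promoter peak of 3063 bp. When gaps under 5 kb were joined the Cd34 domain was 23624 bp, and with gaps under 12 kb it reached 99.3 kb and took in peaks of these noncoding genes.

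Vcam1 (ENSMUSG00000027962.14, chr3:116109949-116129688, minus strand, 19.7 kb) was covered almost from end to end. Its promoter peak of 12012 bp (chr3:116118025-116130036) began only 348 bp upstream of the 5′ end and ran 11.7 kb into the gene over exons 1 to 5 of the 9 exons of Vcam1-201. All 4 annotated start sites lay in it. It ranked 315, between Wac (12021 bp) and Cd200 (11995 bp). Peaks of 3930 bp over exons 6 to 8, 1477 bp in intron 8 and 737 bp at exon 9 followed, so that 88.3% of the gene was inside peaks. The domain then crossed the 3′ end through 4 intergenic peaks of 456 to 1007 bp and stopped 5295 bp past it. The next peak downstream, 569 bp wide, came after 9873 bp. Extl2, a glycosyltransferase gene, lay 80.9 kb downstream, and 11.01% of that interval was covered. On the upstream side the domain stopped at the promoter peak and was followed by 17.6 kb without a peak. The first 10 kb upstream of Vcam1 were 3.48% covered, the lowest value among the 374 coding genes whose promoter peak of at least 10 kb spans the 5′ end, where the median was 54.5%. The antisense gene Gm43109 starts under the Vcam1 promoter peak and extends upstream, with 12.6% of its 12566 bp covered. A peak has no strand and cannot be assigned to one of them. Beyond the gap, peaks of 2190 and 707 bp marked the starts of 5330425B07Rik and the lincRNA Gm26544.

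Megf10 (ENSMUSG00000024593.15, chr18:57133090-57297467, plus strand, 164 kb) had the widest promoter peak of the members, 33642 bp (chr18:57132714-57166355), with rank 10 between Spats2l (33719 bp) and Msgn1 (33132 bp). It started 376 bp upstream of the 5′ end and stayed within exon 1 and intron 1 of Megf10-201 for 33.3 kb. The start of the second transcript, Megf10-202, 9696 bp inside the gene, lay in the same peak. The gene held 25 peaks, and 6 of them overlapped one of its 25 exons. The promoter peak and 7 further peaks formed a domain of 55.3 kb, with a peak of 11099 bp at exon 2 and the end in intron 2. After 3622 bp another region of 22.8 kb and 4 peaks followed in intron 4 and over exon 5, with a peak of 12501 bp. Joining gaps under 5 kb fused both into a domain of 92.1 kb. Past a single peak of 1235 bp in intron 5, the gene was bare until 116224 bp from its 5′ end. The later part of the gene then held 12 peaks in regions of up to 8.87 kb. The last one ended 151341 bp from the 5′ end, and from there 63.0 kb up to the window's edge, including the whole downstream flank, held no peak. Prrc1 lay 57.3 kb downstream. Upstream, 4 intergenic peaks of 385, 2143, 1565 and 1419 bp formed a region of 6.55 kb that ended 4139 bp before the gene, and another of 1442 bp lay 47089 bp away. The interval of 158 kb up to C330018D20Rik was 8.14% covered.

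Chrdl2 (ENSMUSG00000030732.13, chr7:100006172-100034728, plus strand, 28.6 kb) was covered at both ends and bare in the middle. The promoter peak of 10743 bp (chr7:100004417-100015159) reached 1755 bp upstream and 8988 bp downstream of the 5′ end and ranked 458, between Prodh (10745 bp) and Eif4ebp1 (10735 bp). It held the starts of Chrdl2-204, Chrdl2-201 and Chrdl2-202, but not that of Chrdl2-203, 15927 bp inside the gene. A narrow intergenic peak of 598 bp extended the domain to 2386 bp upstream. The domain ended in intron 1 of Chrdl2-202, and 14.4 kb without a peak followed. Peaks of 1780 and 4664 bp then covered the 3′ part, the second of them over exons 10 and 11 and the 3′ end. Downstream of the gene lay the most extensive intergenic H3K56ac of the 6 windows. It began 6473 bp past the 3′ end with a peak of 10914 bp (chr7:100041202-100052115), wider than the promoter peak itself, and continued through 10 more intergenic peaks of 431 to 5864 bp to the 3′ end of Pold3, a subunit gene of DNA polymerase delta. With 2 peaks in the 3′ part of Pold3, this region spanned 46.5 kb and was 82.1% covered. No coding start site lay in a peak of it, but its last peak, 4421 bp wide, lay within 3 kb of the start of a retained-intron transcript of Pold3 and was the widest promoter peak of Pold3, so that the whole region is the promoter domain of Pold3 under the rule used here. Of the 47.4 kb between Chrdl2 and Pold3, 71.9% was covered. In total 34.9 kb of intergenic sequence in this window was inside peaks, against 1.79 to 9.62 kb in the other 5. Upstream, after 12.2 kb without a peak, a single peak of 1547 bp preceded Rnf169, a ubiquitin ligase gene, which lay 25.7 kb away, pointed the other way and had its own promoter peak of 3155 bp. The Chrdl2 domain kept its length of 11.4 kb when gaps under 1, 5 or 12 kb were joined.

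Sox8 (ENSMUSG00000024176.10, chr17:25565892-25570686, minus strand, 4.80 kb) was the shortest member and lay wholly inside a single peak of 6614 bp (chr17:25565242-25571855), from 1169 bp upstream of the 5′ end to just past the 3′ end. All 3 exons and all 3 annotated start sites were covered. The peak ranked 1824, between Hkdc1 (6614 bp) and Zbtb16 (6613 bp). The antisense gene 2810468N07Rik starts under the same peak and runs upstream, and 39.6% of its 4686 bp was covered. The domain did not end with the gene. It reached 9661 bp upstream and there included the 3294 bp promoter peak of Lmf1, a lipase maturation factor gene whose 5′ end lies 8.40 kb from that of Sox8, with 59.5% of the interval covered. On the other side it extended 15422 bp past the 3′ end over the lincRNA AC131323.3, which held 5 peaks of 451 to 4036 bp and was 83.9% covered. When gaps under 1 kb only were joined, the domain measured 21386 bp and its upstream end was that of the Sox8 peak, without Lmf1. When gaps under 12 kb were joined it reached 90.9 kb. Past the domain, 5786 bp without a peak led to an intergenic peak of 1818 bp and to peaks at the lincRNAs AC131323.5 (6330 bp), AC131323.1 (3090 bp) and AC131323.2 (3162 bp). The next coding gene downstream, Sstr5, a somatostatin receptor gene, lay 68.6 kb away with a promoter peak of 708 bp, and 51.9% of that interval was covered. On the Lmf1 side the domain was followed by 17.1 kb without a peak.

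Of the 117 window peaks, 43 touched a member gene, 38 touched another gene only and 36 were intergenic, with no base in an annotated gene of any type. The intergenic share was 30.8% (Wilson 95% interval 23.1 to 39.6%, counting error only), and that of all 105600 peaks was 29.7% (29.5 to 30.0%). The interval of the members contains the share of all peaks, but it treats the clustered peaks of 6 windows as independent. The windows are also built around genes, so the shares are not like for like. Of the intergenic peaks, 12 lay upstream and 24 downstream of their member, and 6 belonged to a promoter domain. Chrdl2 had 13, Vcam1 8, Megf10 5, Cd34 and Sox8 4 each, and Calcr 2. Their median width was 1048 bp, with a range of 385 to 10914 bp, and peaks in the member genes had a median of 1780 bp. Only 2 intergenic peaks exceeded 6 kb, the upstream peak of Cd34 and the first downstream peak of Chrdl2.

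Per 100 kb of window, the number of peaks was 4.47 at Calcr, 11.3 at Megf10, 11.7 at Vcam1, 17.2 at Sox8, 18.7 at Chrdl2 and 18.8 at Cd34. The median over the windows of all coding genes was 5.50, so Calcr fell below it and the others above. By covered bases the order changed. The window of Calcr was 20.9% covered, that of Vcam1 22.5%, Megf10 38.2%, Cd34 41.4%, Sox8 41.7% and Chrdl2 49.8%, against a median of 9.46%. Calcr combined the fewest peaks with the second widest promoter peak.

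**Figure D2:**
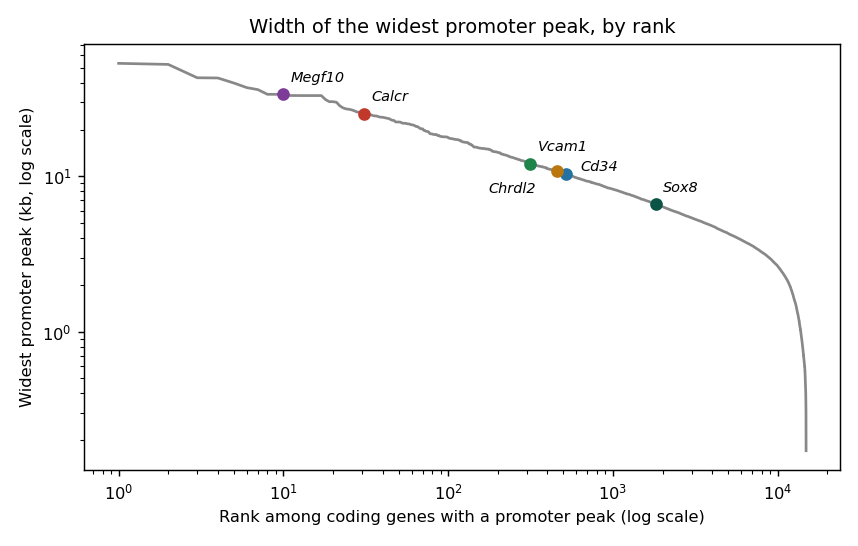
Width of the widest promoter peak in kb against its rank among the 14872 coding genes with one, both axes on log scales, with the grey line for all genes and coloured points for the members. Megf10 (rank 10) and Calcr (rank 31) lie near the upper end, Vcam1, Chrdl2 and Cd34 follow at ranks 315, 458 and 518, and Sox8 is at rank 1824.

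In the plot of widths by rank, the members fell into 3 steps. Megf10 and Calcr had promoter peaks of over 25 kb. Vcam1, Chrdl2 and Cd34 lay close together, between 10.3 and 12.01 kb. Sox8 was lower at 6.61 kb, in a gene of 4.80 kb. Genes that share a peak each count in this rank. The width of an interval has no error here, and neighbouring genes in the rank differed by as little as 1 bp at Sox8, so small differences in rank carry no information.

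Gene coverage gave another order. Sox8 was covered over 100% of its length, Vcam1 over 88.3%, Cd34 over 60.7%, Megf10 over 56.98%, Chrdl2 over 49.5% and Calcr over 43.8%. At least 50% of the gene was covered in 4 of the 6 and in 9.9% of coding genes, whose median was 7.82%. Since the covered share differs with gene length, each member was also set beside coding genes within 20% of its length. Vcam1 stood at percentile 99.4 of 2400 such genes (median 10.4%), Sox8 at 99.0 of 1742 (median 0%), Cd34 at 97.5 of 2485 (median 9.50%), Megf10 at 97.0 of 733 (median 5.72%), Chrdl2 at 95.2 of 2454 (median 8.84%) and Calcr at 93.9 of 1382 (median 7.05%). In bases, Megf10 had the most, with 93660 bp of its gene inside peaks, followed by Calcr with 34606 bp.

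**Figure D3:**
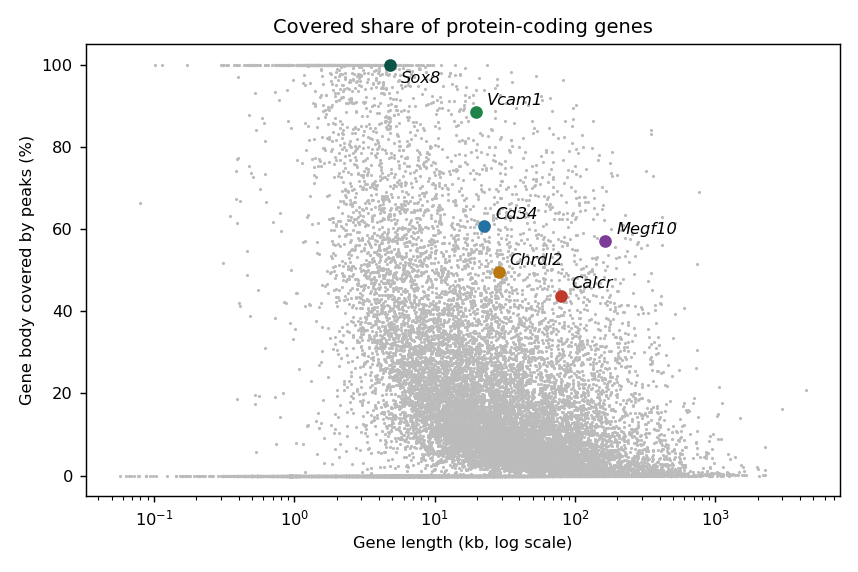
Percent of the gene body inside H3K56ac peaks against gene length in kb (log scale), with 1 grey point per protein-coding gene and coloured points for the members. The members range from 43.8% (Calcr) to 100% (Sox8), and Megf10 keeps 56.98% at 164 kb, while genes of similar length have a median of 5.72%.

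The covered bases were concentrated at the 5′ side. Along 10 equal segments of each gene, the first 2 were 100% covered in all 6 members. This was the case for the first 20% of the gene in 14.3% of coding genes, and in 5.56% of those of at least 10 kb, a class that includes 5 members. The third segment was 98.3% covered in Megf10 and 100% in the others. Coverage then fell to 0% in segment 5 of Calcr and Chrdl2 and in segment 7 of Cd34 and Megf10. It rose again to 25.2% in segment 8 of Calcr, 45.4% in segment 8 of Cd34 and 44.5% in segment 9 of Megf10, and to 100% in the last segment of Chrdl2. Vcam1 was at least 90.9% covered through segment 8 and ended at 18.6%. Chrdl2 and Sox8 were the members with a fully covered last segment.

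**Figure D4:**
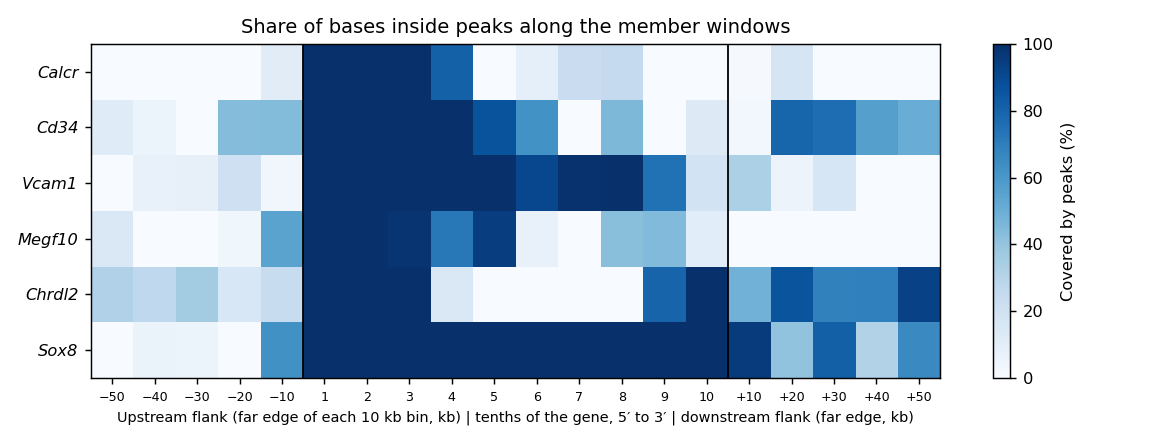
Percent of bases inside peaks in 10 kb bins of each 50 kb flank and in 10 equal segments of each gene from 5′ to 3′, 1 row per member, on a colour scale from 0 to 100%. The first 2 gene segments are at 100% in all rows, while the nearest upstream bin ranges from 3.48% (Vcam1) to 62.6% (Sox8) and the downstream flank is filled at Chrdl2, Cd34 and Sox8 and empty at Megf10.

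The promoter peaks reached less far upstream than into the gene. The promoter peaks of Calcr, Cd34, Vcam1, Megf10 and Chrdl2, all of at least 10 kb, reached 21.8, 10.3, 33.5, 88.5 and 5.12 times as far into the gene as upstream of it. A ratio above 5 was found in 5 of 5 of these members and in 41.7% of the 374 coding genes with such a peak over the 5′ end, so this form was common among wide promoter peaks. The median upstream reach of the 374 was 2900 bp. All 5 members reached less far than this median, and 20 of the 374 peaks reached less far upstream than that of Vcam1, 27 than that of Megf10, 52 than that of Cd34, 70 than that of Calcr and 128 than that of Chrdl2. The ratio, the first 20% and the 374 genes were chosen after the values of the members had been seen. The nearest 10 kb upstream were 3.48% covered at Vcam1, 11.1% at Calcr, 23.5% at Chrdl2, 44.0% at Cd34, 55.0% at Megf10 and 62.6% at Sox8. The median of the 374 genes was 54.5%. Of these genes, 0 had a lower value than Vcam1, 22 than Calcr, 77 than Chrdl2, 157 than Cd34 and 189 than Megf10. Cd34 and Megf10 thus lay near the middle. The first 10 kb downstream of the 5′ end were 89.9 to 100% covered in all 6. At Sox8, a gene of 4.80 kb, this stretch runs past the 3′ end. Such values were common among the 374 genes, whose median was 99.1% and lower quartile 83.6%.

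The base composition of the promoter peaks was not uniform. Against the 6339 peaks of at least 5 kb in the list, whose median GC content was 46.2%, Calcr (39.5%), Vcam1 (40.6%), Cd34 (41.9%) and Megf10 (42.4%) were below the lower quartile of 43.5%, while Chrdl2 (51.6%) and Sox8 (56.1%) were above the upper quartile of 49.5%. The 4 lower values were at genes of surface proteins, and the higher ones at those of a secreted and a nuclear factor. A link between GC content and the type of protein was not tested. GGGCGG was absent from the Vcam1 peak and most frequent in that of Sox8, with 1.21 matches per kb against a median of 0.24. Its lower quartile over the wide peaks was 0, so its absence was common. The E-box CAGCTG ranged from 0.39 per kb in Megf10 to 0.76 per kb in Sox8 around a median of 0.54. TGANTCA was found at 0.54 per kb in Megf10 and 0.49 per kb in Cd34, against a median of 0.30 and an upper quartile of 0.44, and at 0.093 per kb in Chrdl2 and at none in Sox8. TATAAA was above its upper quartile of 1.09 per kb in Calcr (1.30), Cd34 (1.26) and Vcam1 (1.499). These are matches of letters only, without adjustment for GC content.

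Binding partners and paralogs of the members did not have such wide promoter peaks. Of 22 such genes, 17 had a promoter peak, 4 reached 5 kb and none reached 10 kb, with a median of 1507 bp. Over all coding genes, the shares were 67.8%, 16.5% and 2.59%, with a median of 2303 bp. In these shares, the partners and paralogs were thus close to coding genes in general. For Calcr, the paralog Calcrl had 2902 bp, and the receptor activity-modifying proteins Ramp1, Ramp2 and Ramp3 had 1110 bp, 5071 bp and no peak. For Cd34, the related sialomucins Podxl and Podxl2 had 1883 and 3395 bp. For Vcam1, its integrin ligand chains differed, with 6996 bp at Itgb1 and no peak at Itga4, and Icam1 had 2210 bp, Icam2 1140 bp and Madcam1 none. For Megf10, the family members Megf6, Megf9 and Megf11 had 1493, 5896 and 1330 bp. For Chrdl2, Chrd had 3344 bp, Chrdl1 none and Nog, another BMP antagonist, 1047 bp, while the ligand Bmp4 had 7098 bp and the receptor Bmpr1a 3329 bp. For Sox8, Sox9 had 1520 bp and Sox10 1210 bp. In each of the 6 sets the member had the widest promoter peak, and the smallest difference was that between Chrdl2 (10743 bp) and Bmp4 (7098 bp). The order turned by promoter domain for 2 of the sets. The domains of Bmpr1a (46526 bp) and Bmp4 (45325 bp) were longer than that of Chrdl2 (11374 bp), and that of Ramp2 (35774 bp) was longer than that of Calcr (31322 bp). Bmp4 was also covered over 97.02% of its length, against 49.5% for Chrdl2, and Ramp2 over 48.8%, against 43.8% for Calcr.

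A list of 20 other MuSC surface and niche genes was more like the members. Itgb1 is also in the list of partners and paralogs. Pax7, Itga7 and Cdh15 are also among the MuSC markers above, so the comparisons are not independent. Pax7 encodes a transcription factor and not a surface or niche protein. All 20 had a promoter peak, 17 reached 5 kb, 10 reached 10 kb and 4 reached 20 kb, with a median of 9888 bp. The widest were Notch2 (53370 bp), Col5a1 (25363 bp), Notch3 (22371 bp) and Pax7 (21301 bp), and the narrowest was Cdh2 (1518 bp). Of 20 markers of endothelial, fibro-adipogenic, blood, myofibre and Schwann cells, 14 had a promoter peak, 2 reached 5 kb (Tek, 12975 bp, and Dcn, 5233 bp) and 1 reached 10 kb, with a median of 1175 bp. Beside both lists, 67.8% of all coding genes had a promoter peak. At least 5 kb was reached by 16.5% of them, 10 kb by 2.59% and 20 kb by 0.319%. Cd34 and Vcam1 are also expressed by endothelial and other cells of muscle, and the part of such cells in their peaks was not tested. By the purity that the study states for its sorted cells when analysed again, a sizeable minority were not of the sorted type. Of the 4 endothelial markers, Tek had a promoter peak of 12975 bp, Pecam1 of 3440 bp and Kdr of 1139 bp, and Cdh5 had none.

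**Figure D5:**
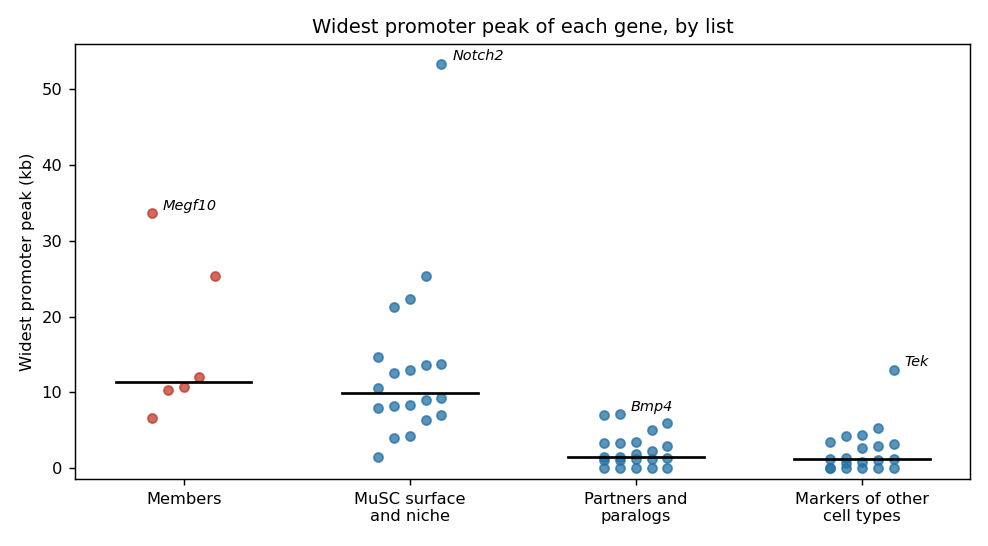
Widest promoter peak in kb of each gene (points, with 0 for a gene without one) in 4 lists, with the median as a black line. Members (median 11378 bp) and other MuSC surface and niche genes (median 9888 bp) extend over 20 kb, partners and paralogs end at 7098 bp (Bmp4), and among markers of other cell types only Tek exceeds 10 kb.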

How the data were processed

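Chromatin of freshly isolated MuSCs was immunoprecipitated for H3K56ac and sequenced by the authors, with input as control. They trimmed the reads, aligned them with bowtie to mm10 while keeping single alignments, removed duplicates with Picard, called peaks with MACS2, removed blacklisted regions and merged overlapping peaks with GenomicRanges. The submitters' processing notes also name FastQC, SAMtools and deepTools. The deposited list gives the start and end of each of 105600 peaks, and its score column, as deposited, was 0 in every row. It had 0 columns of values per sample. Which libraries entered the merge is not given in the sources used here, and the list gives no value or depth per library, so no test was made and no error could be given. The read totals that the study states per library were not used here.

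Positions count from 1 on GRCm38, the same build as mm10, and no peak ran past the end of its chromosome. Overlap meant at least 1 bp with a gene of GENCODE vM21, promoters were within 3 kb of a TSS, and domains were joined across gaps under 3 kb. Genes on the mitochondrial genome were left out, which left 21938 coding genes. Percentiles used coding genes within 20% of the length. The named genes are the members, the coding genes in or next to their windows, microRNA genes inside a member, antisense and lincRNA genes with a window peak, the neighbours in rank, the 2 gene lists and the cell type markers. Any other gene was named with its values in view. Some genes that this rule takes in are not reported here, and the counts over lists include them. The members and lists were chosen with earlier results of these data known. Alternatives were other windows, promoters, minimum widths and joining gaps. Wilson intervals cover counting error only. Functions in Python 3.11.15 with numpy 2.4.6 were tested on simulated intervals and motifs.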

Additional observations from a re-analysis of the deposited data

How the results depend on the processing

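Of 23 values for the 6 genes together under other settings, 15 stayed close to the reported value and 8 moved. Close meant within a ratio of 1.5 for counts and within 1% of the reported value otherwise. The 117 window peaks thus count as close to 79 in windows of 25 kb and to 163 in windows of 100 kb. Joining peaks less than 1 kb apart lowered the number of window peaks from 117 to 53 and raised the median of the widest promoter peaks from 11378 to 19747 bp. The number of intergenic peaks went from 36 to 63 when only protein-coding genes counted as genes, and to 20 in windows of 25 kb. The median covered share went from 58.9% to 53.6% with 3 kb added to both ends of the genes, and the median percentile of that share from 97.3 to 92.6 when set against all coding genes in place of those of similar length. The median domain was 27631 bp as reported, 19747 bp when gaps under 1 kb were joined and 74663 bp when gaps under 12 kb were. Of 90 values for single genes, 52 stayed close and 38 moved. The length of a domain thus rests on the joining gap, while the counts of 8 outer domain ends were between 7 and 9. These counts include the 6 upstream ends, which lie outside the gene under any gap. Peak height, library depth and genotype are not in the list, and a width is that of merged peaks. No paired analysis was possible because the list holds no value per replicate and no result comes from a test. Leaving out a replicate could not be done for the same reason.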

Other observations

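The region of H3K56ac downstream of Cd34 lay over A330023F24Rik, a noncoding gene of 61530 bp that held 17 peaks and was 54.3% covered. Its body also contains the microRNA genes Mir29b-2 (chr1:195037040-195037120) and Mir29c (chr1:195037547-195037634), which lie beyond the Cd34 window. Neither overlapped a peak, and Mir489 and Mir653 in Calcr did not either. How often microRNA genes overlap a peak was not determined, so no shared pattern is drawn from this. Mir29b-2 and Mir29c were chosen after their positions and values were seen, and the list does not show whether they are transcribed.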
